A study of Mus musculus with 24 samples.

Results

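The genes described here are 40 genes of DNA replication and S phase, measured in the lungs of mice that had been given carbon nanomaterials through the airway. They were taken from a fixed list of gene names, and each gene was read from its brightest array spot over all 24 samples. All 40 were found among the 20738 genes that the arrays name. A total of 37 were bright enough to be tested, in a table of 16519 tested genes. Orc1, Ccne2 and Brca1 were too dim and are given as levels only.

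The mice were female C57BL/6 animals aged 7 to 8 weeks. In each of the 6 treated groups, 10 µg of material in 50 µl of saline (PBS) was given daily for 4 days by oropharyngeal aspiration (the animal draws in liquid laid on the throat). The lungs were collected 24 h after the last dose, and each sample was a pool of RNA from 2 mice. The groups, named as in the labels, were rCNT (3 samples), tCNT (3), SES (3), BayTubes (4), Graphite (4) and fullerene (4), each given that material, and Ctrl (3), given 50 µl of PBS alone. The names rCNT, tCNT and SES are not spelled out in the labels. Samples are called here by group and number, from Ctrl 1 to fullerene 24.

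Before a cell divides it must copy its DNA exactly once per cycle. Origin recognition and licensing proteins load the MCM helicase onto DNA in the G1 phase, further factors switch the helicase on at the start of S phase, and polymerases, a sliding clamp and its loader then copy the strands. Enzymes that make deoxynucleotides and proteins that rebuild chromatin are produced at the same time. E2F transcription factors switch on many of these genes, and cyclin E drives the cell into S phase. The adult lung divides little at rest, whereas injured or inflamed lung can hold dividing macrophages, epithelial cells and endothelial cells.

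The values are log2 signals of arrays with 2 dyes, in which each dye carried its own sample, so 12 arrays on 3 slides held the 24 samples. Such signals have no count depth, and the number of samples sets the precision: over the tested genes, the SE of a change against Ctrl had a median between 0.132 and 0.161. Samples that shared an array were correlated (0.399, the value used in the fit), and Ctrl samples were on 2 of the 3 slides. Graphite 13 had fewer different values (4868) than any other sample (7864 to 12122). Markers of alveolar type 2 cells, the surfactant producers, averaged a log2 signal of 15.35 to 15.84 over all samples, and no listed marker of lung epithelium or endothelium was below the detection limit in every sample. That limit was the 40th percentile of a sample's signals, between 5.69 and 5.75.

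Replication genes were higher after rCNT than after PBS, in nearly every step of the process. Of the 37 tested genes, 29 rose and 0 fell at an adjusted p under 0.05 (limma, adjusted over all 16519 genes), where 12.4% of all tested genes rose and 9.41% fell. In whole lung, more cells that express a gene and more RNA per cell cannot be told apart. The median change of the 40 genes was 0.82 on the log2 scale, against a median of -0.02 over all tested genes. In 31 of the 40, every rCNT sample was above every Ctrl sample, which held for 18.9% of all tested genes. The largest changes were those of Uhrf1, Rrm2 and E2f8, at 6.41-fold, 6.07-fold and 4.94-fold. With the array as a fixed term, which uses only differences within arrays, 17 genes passed. Within slide 1, with 1 rCNT sample against 1 Ctrl sample, and within slide 2, with 1 against 2, the spread has to come from the other groups: 19 genes passed on each slide, while the change of Rrm1 was -0.0708 on slide 1 and that of Rfc5 -0.0521 on slide 2.

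The other materials were set against the same 3 Ctrl samples, and fewer of the genes passed in each of those comparisons. After BayTubes, 20 of the 37 genes rose and 0 fell, where 2.16% of all tested genes rose and 1.02% fell, with a median change of 0.52 over the 40 genes. After tCNT 4 rose and 0 fell (0.684% and 0.0242% of all tested genes), with a median of 0.45. After Graphite 5 rose and 0 fell (0.545% and 0.587%), with a median of 0.32. After fullerene 0 passed (0.151% of all tested genes rose and 0.109% fell) and after SES 0 passed (0% of all tested genes, since SES changed no gene at this threshold), with medians of 0.26 and 0.25. At an unadjusted p under 0.05, limma gave 17 of the 37 genes after fullerene, against 1993 of all 16519 tested genes. After SES it gave 12 of the 37, against 747 of all tested genes. The median of all tested genes was between -0.02 and 0.02 in the 6 comparisons.

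In single samples rCNT was on top and Ctrl at the bottom, while the other groups overlapped. The median of the 40 genes, each set against its Ctrl mean, was 0.84, 1.05 and 1.04 in the rCNT samples, 0.25, 0.56 and 0.42 in the tCNT samples and 0.29, 0.15 and 0.35 in the SES samples. It was 0.63, 0.38, 0.43 and 0.61 in the BayTubes samples, 0.44, 0.34, 0.27 and 0.29 in the Graphite samples and 0.51, 0.23, 0.29 and 0.17 in the fullerene samples. The Ctrl samples lay at -0.02, -0.01 and 0.03. All 21 treated samples were above all 3 Ctrl samples on this median, and the 3 rCNT samples were above the other 18. By group mean, rCNT was highest in 34 of the 40 genes, BayTubes second in 28, and Ctrl lowest in 30. How often such an order holds over all tested genes was not counted.

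**Figure D1:**
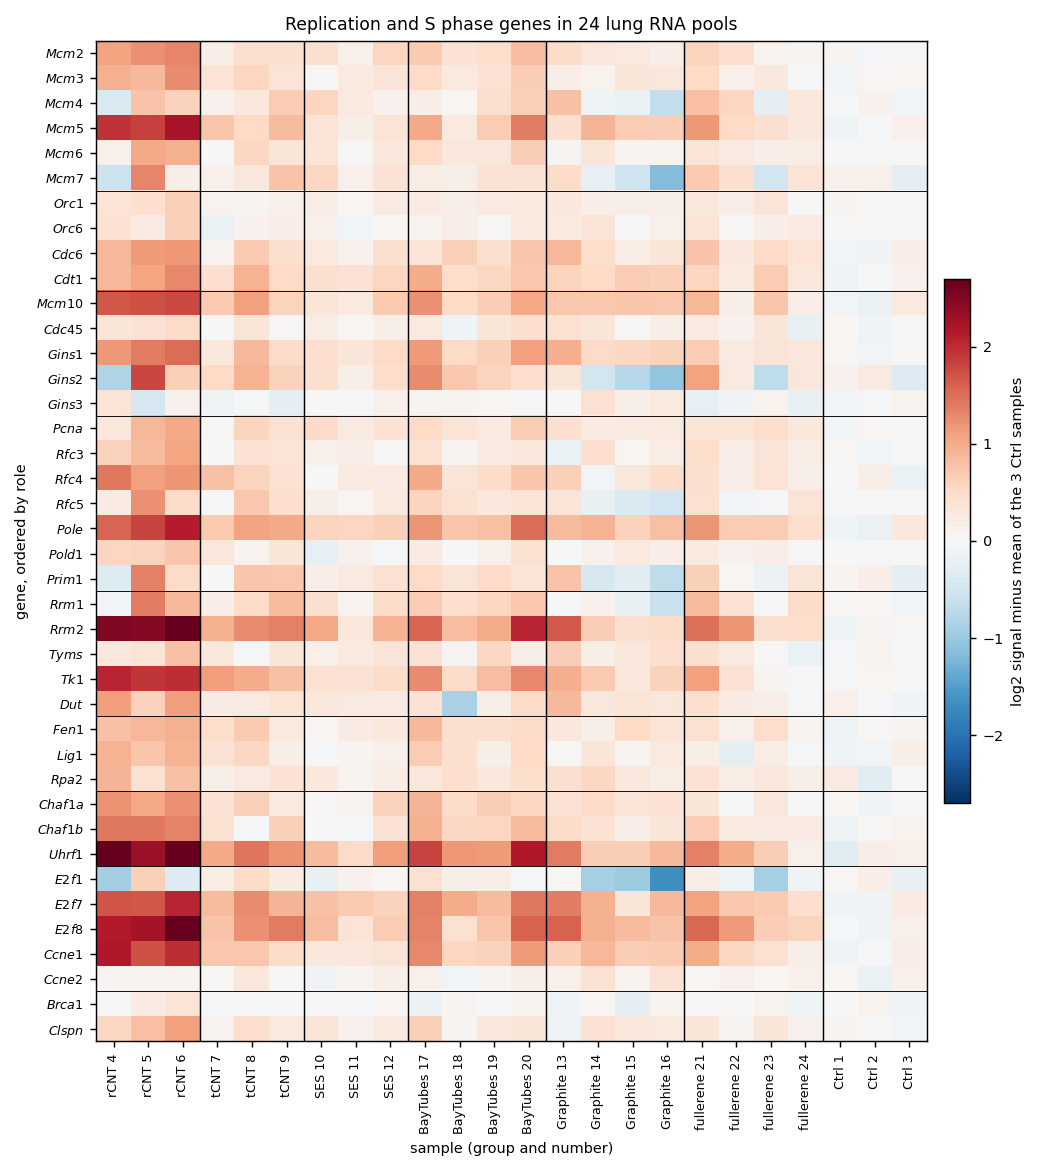
Each row is 1 of the 40 genes, ordered by role, and each column 1 of the 24 samples; colour gives the log2 signal minus the mean of the 3 Ctrl samples, red for higher and blue for lower. The 3 rCNT columns are the reddest, BayTubes 17 and 20 come next, and single tiles such as Mcm7 and E2f1 in Graphite 16 are blue.

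The replicative helicase is a ring of the 6 proteins encoded by Mcm2 to Mcm7. After rCNT, 4 of these 6 genes rose (Mcm2, Mcm3, Mcm5 and Mcm6). Mcm5 had log2 signals of 10.99, 10.88 and 11.25 in rCNT samples, 10.05, 9.31, 9.72 and 10.42 in BayTubes samples and 8.91, 9.01 and 9.18 in Ctrl samples. Every rCNT sample was above every sample of every other group, and the BayTubes samples lay between rCNT and Ctrl, with BayTubes 18 closest to Ctrl. The change was 1.78 ± 0.22 after rCNT (SE, n = 3 samples against 3, adjusted p = 1.17e-05) and 0.77 ± 0.18 after BayTubes (n = 4 against 3, adjusted p = 0.018). Mcm2 rose by 1.20 ± 0.16 after rCNT and 0.62 ± 0.13 after BayTubes, and Mcm3 by 0.96 ± 0.14 and 0.43 ± 0.12.

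Mcm6 had 11.91, 12.80 and 12.73 in rCNT samples, against 11.77, 11.74 and 11.81 in Ctrl samples. Here rCNT 4 lay only just above the Ctrl samples while the other rCNT samples were well above, and the change was 0.74 ± 0.17 (adjusted p = 0.00421). Mcm4 and Mcm7 did not pass after rCNT, at 0.35 ± 0.27 and 0.40 ± 0.35 (adjusted p = 0.386 and 0.439). Mcm7 had 10.42, 12.32 and 11.17 in rCNT samples, against 11.11, 11.13 and 10.76 in Ctrl samples, so the rCNT samples lay on both sides of the Ctrl range.

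Loading of the helicase needs the origin recognition complex, of which Orc1 and Orc6 are subunits, and the loading factors Cdc6 and Cdt1. Cdc6 had 7.00, 7.26 and 7.26 in rCNT samples, against 6.02, 6.00 and 6.27 in Ctrl samples, with no overlap, and rose by 1.19 ± 0.18 (adjusted p = 7.78e-05). Cdt1 had 10.22, 10.39 and 10.61 in rCNT samples, against 9.22, 9.31 and 9.43 in Ctrl samples, and rose by 1.09 ± 0.16 (adjusted p = 5.8e-05). In Cdt1 all 21 treated samples were above all 3 Ctrl samples. It rose by 0.69 ± 0.13 after BayTubes and by 0.60 ± 0.14 after Graphite, whereas its change after tCNT, 0.64 ± 0.15, did not pass (adjusted p = 0.0574).

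Orc6 showed a small change, 0.42 ± 0.13 after rCNT (adjusted p = 0.0247). Without rCNT 4, rCNT 6, Ctrl 1 or Ctrl 3 it did not pass (changes of 0.40, 0.34, 0.40 and 0.40). Orc1 was at or below the detection limit in most samples, with 5.67, 5.77 and 5.95 in rCNT samples, against 5.37, 5.30 and 5.25 in Ctrl samples. The rCNT samples were above the Ctrl samples, but at this brightness a size of change is not reliable.

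At the start of S phase Mcm10, Cdc45 and the GINS complex (of which Gins1, Gins2 and Gins3 encode subunits) turn the loaded ring into a working helicase. Mcm10 had 8.85, 8.88 and 8.95 in rCNT samples, 7.88, 8.26 and 7.77 in tCNT samples and 7.08, 6.98 and 7.43 in Ctrl samples. The 3 groups did not overlap, with rCNT highest. Mcm10 rose by 1.71 ± 0.20 after rCNT (adjusted p = 8.96e-06) and by 0.86 ± 0.20 after tCNT (adjusted p = 0.0486), and the difference between rCNT and tCNT was 0.84 ± 0.20 (adjusted p = 0.0115).

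Gins1 rose by 1.39 ± 0.19 after rCNT, 0.91 ± 0.16 after BayTubes and 0.71 ± 0.17 after Graphite (adjusted p = 3.95e-05, 0.00238 and 0.0458). Gins2 spread widely, with 5.92, 8.54 and 7.36 in rCNT samples, against 6.83, 6.97 and 6.38 in Ctrl samples, and its change of 0.63 ± 0.43 did not pass. After BayTubes it had 8.01, 7.45, 7.33 and 7.19, all above the 3 Ctrl samples, and its change of 0.82 ± 0.35 did not pass either (adjusted p = 0.283). Gins3 had group means from 12.60 to 12.94. It had 13.11, 12.27 and 12.86 in rCNT samples, on both sides of the 12.67, 12.71 and 12.83 in Ctrl samples. Gins3 was above every Ctrl sample in 3 of 4 Graphite samples and below every Ctrl sample in 3 of 4 fullerene samples. Its change after rCNT was -0.03 ± 0.15, with a 95% interval from -0.34 to 0.28. Cdc45 was dim, and its change of 0.39 ± 0.15 after rCNT did not pass (adjusted p = 0.0683).

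The copying machinery includes polymerase epsilon and delta (catalytic subunits Pole and Pold1), the primase Prim1, the sliding clamp Pcna and the clamp loader subunits Rfc3, Rfc4 and Rfc5. After rCNT, 6 of these 7 genes rose, all but Prim1. Pole had 9.51, 9.76 and 10.05 in rCNT samples, 9.13, 8.70, 8.75 and 9.46 in BayTubes samples and 7.83, 7.76 and 8.23 in Ctrl samples. All treated samples of all 6 materials were above all Ctrl samples. Pole rose in 4 of the 6 comparisons, by 1.77 ± 0.20 after rCNT, 0.98 ± 0.19 after tCNT, 1.09 ± 0.16 after BayTubes and 0.82 ± 0.17 after Graphite. Pold1, by contrast, moved little, with 11.22, 11.26 and 11.39 in rCNT samples, against 10.65, 10.63 and 10.67 in Ctrl samples, a change of 0.56 ± 0.11 (adjusted p = 0.000886). The difference between these changes was not tested.

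Pcna, often used as a marker of dividing cells, had 12.44, 13.03 and 13.16 in rCNT samples, against 12.06, 12.17 and 12.18 in Ctrl samples. Again rCNT 4 was the lowest of its group, though above the Ctrl samples, and Pcna rose by 0.82 ± 0.17 after rCNT and 0.52 ± 0.14 after BayTubes (adjusted p = 0.00171 and 0.0439). Rfc4 rose by 1.22 ± 0.17 and 0.62 ± 0.14 in the same comparisons, and Rfc3 by 0.73 ± 0.15 after rCNT. Rfc5 rose by 0.81 ± 0.22 after rCNT, but did not pass without rCNT 5 (0.56, adjusted p = 0.115) or without Ctrl 1 (0.67, adjusted p = 0.061).

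Deoxynucleotides come from ribonucleotide reductase, with the large subunit Rrm1 and the small subunit Rrm2, and from the thymidine enzymes Tyms, Tk1 and Dut. Rrm2, whose protein is made in S phase, had 11.30, 11.28 and 11.54 in rCNT samples, 9.76, 10.06 and 10.16 in tCNT samples, 10.38, 9.63, 9.80 and 10.85 in BayTubes samples and 8.68, 8.88 and 8.84 in Ctrl samples. The rCNT samples were above all others, and all treated samples were above the Ctrl samples. Rrm2 rose by 2.60 ± 0.33 after rCNT and 1.44 ± 0.27 after BayTubes (adjusted p = 1.91e-05 and 0.0049), while its change of 1.33 ± 0.33 after tCNT did not pass (adjusted p = 0.0729).

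Rrm1 had 9.45, 10.91 and 10.39 in rCNT samples, against 9.56, 9.56 and 9.44 in Ctrl samples, so rCNT 4 lay within the Ctrl range. Its change of 0.72 ± 0.25 passed narrowly (adjusted p = 0.042) and did not pass without rCNT 5 (0.38), rCNT 6 (0.67) or any of the Ctrl samples (0.65 to 0.82). Tk1, which recycles thymidine, had 10.80, 10.67 and 10.73 in rCNT samples, 9.86, 9.74 and 9.53 in tCNT samples and 8.69, 8.80 and 8.74 in Ctrl samples. The groups were tight and separate, and Tk1 rose by 1.85 ± 0.22 after rCNT, 0.95 ± 0.22 after tCNT and 0.95 ± 0.18 after BayTubes.

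Dut, which removes dUTP, rose by 0.83 ± 0.23 after rCNT (adjusted p = 0.0131). It had 9.07, 7.81, 8.85 and 9.21 in BayTubes samples, against 8.82, 8.63 and 8.59 in Ctrl samples, and BayTubes 18 was the lowest of all 24 samples. Tyms, which makes thymidylate, did not pass in any comparison, with a change of 0.36 ± 0.16 after rCNT (adjusted p = 0.109).

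The genes that finish the lagging strand changed by similar amounts. Fen1, a nuclease that trims flaps, Lig1, the ligase that seals nicks, and Rpa2, part of the protein that coats unpaired DNA strands, rose by 0.88 ± 0.14, 0.88 ± 0.13 and 0.70 ± 0.15 after rCNT (adjusted p = 0.000171, 7.95e-05 and 0.00222). Lig1 had 11.45, 11.26 and 11.44 in rCNT samples, against 10.41, 10.42 and 10.69 in Ctrl samples, and the groups did not overlap. Fen1 and Lig1 also rose after BayTubes, by 0.53 ± 0.12 and 0.46 ± 0.11, and Rpa2 did not pass there (0.45 ± 0.12, adjusted p = 0.0528).

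Behind the fork, chromatin assembly factor 1 (large subunit Chaf1a, middle subunit Chaf1b) places histones, and Uhrf1 brings the maintenance DNA methyltransferase to newly copied DNA. All 3 genes rose after rCNT and after BayTubes. Uhrf1 had the largest change of the 40 genes. Its log2 signals were 10.60, 10.11 and 10.73 in rCNT samples, 8.79, 9.22 and 8.99 in tCNT samples, 9.61, 8.96, 8.92 and 9.95 in BayTubes samples and 7.45, 7.96 and 7.92 in Ctrl samples. The rCNT samples were above every other sample, and the tCNT and BayTubes samples overlapped each other well above Ctrl. Uhrf1 rose by 2.68 ± 0.32 after rCNT (adjusted p = 1.01e-05) and 1.60 ± 0.26 after BayTubes (adjusted p = 0.00161), and its change after tCNT was 1.34 ± 0.32 (adjusted p = 0.0541).

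Chaf1b had 10.81, 10.80 and 10.72 in rCNT samples, 10.34, 9.93, 9.96 and 10.24 in BayTubes samples and 9.24, 9.41 and 9.47 in Ctrl samples, with no overlap between the 3 groups. It rose by 1.34 ± 0.17 after rCNT and 0.71 ± 0.14 after BayTubes, and Chaf1a by 1.14 ± 0.15 and 0.63 ± 0.12.

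Among the regulators of S phase entry, cyclin E (Ccne1 and Ccne2) activates the kinase Cdk2, E2f1 activates replication genes, and E2f7 and E2f8 repress them later in S phase. Ccne1 had 9.85, 9.41 and 9.69 in rCNT samples, 9.00, 8.28, 8.33 and 8.84 in BayTubes samples and 7.57, 7.64 and 7.88 in Ctrl samples. The 3 groups did not overlap, and Ccne1 rose by 1.81 ± 0.19 after rCNT and 0.86 ± 0.16 after BayTubes (adjusted p = 3.19e-06 and 0.00373). Ccne2 stayed below the detection limit in all 24 samples, with log2 signals from 4.93 to 5.52.

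E2f8 had 8.46, 8.58 and 9.02 in rCNT samples, 7.92, 7.28, 7.18 and 7.09 in Graphite samples and 6.29, 6.24 and 6.46 in Ctrl samples. All treated samples of all 6 materials were above all Ctrl samples. It rose by 2.30 ± 0.29 after rCNT, 1.07 ± 0.24 after BayTubes and 1.07 ± 0.26 after Graphite. E2f7 was above Ctrl in all 21 treated samples and rose by 1.85 ± 0.22 after rCNT, 1.12 ± 0.22 after tCNT, 1.25 ± 0.18 after BayTubes and 0.95 ± 0.20 after Graphite. A second, dimmer E2f7 spot had 6.96, 6.38 and 6.59 in rCNT samples, against 6.40, 6.18 and 6.69 in Ctrl samples, so there the groups overlapped. E2f1 was read from its only spot, which did not follow the spots used for its relatives. E2f1 belongs to the 7 genes with a wide spread among rCNT samples that are described below. It had 7.85, 9.41 and 8.42 in rCNT samples and 8.80, 7.87, 7.81 and 7.12 in Graphite samples, against 8.81, 8.96 and 8.57 in Ctrl samples. Its change was -0.08 ± 0.32 after rCNT and -0.66 ± 0.28 after Graphite (adjusted p = 0.889 and 0.196).

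Clspn, the adaptor that passes a stalled fork's signal to the kinase Chk1, rose by 0.72 ± 0.16 after rCNT (adjusted p = 0.00312). It was below the detection limit in all 3 Ctrl samples, and at that brightness the fitted change has no sure size. Brca1, which acts in repair of broken forks, was below the limit in all 24 samples.

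**Figure D2:**
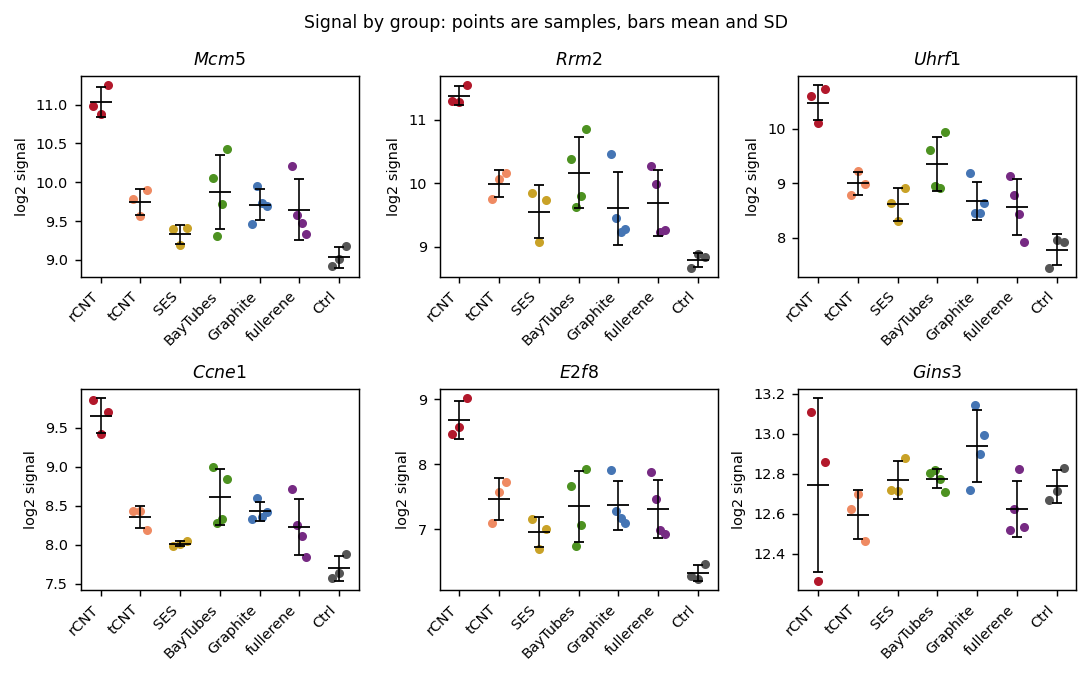
Log2 signal of Mcm5, Rrm2, Uhrf1, Ccne1, E2f8 and Gins3 by group; points are samples, and bars give the mean and SD of 3 or 4 samples. In the first 5 genes all rCNT samples lie above all other samples, and the other materials lie between rCNT and Ctrl except fullerene 24, which is within the Ctrl range in Uhrf1 and Ccne1, whereas Gins3 shows no separation; each panel has its own axis, which does not start at 0.

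**Figure D3:**
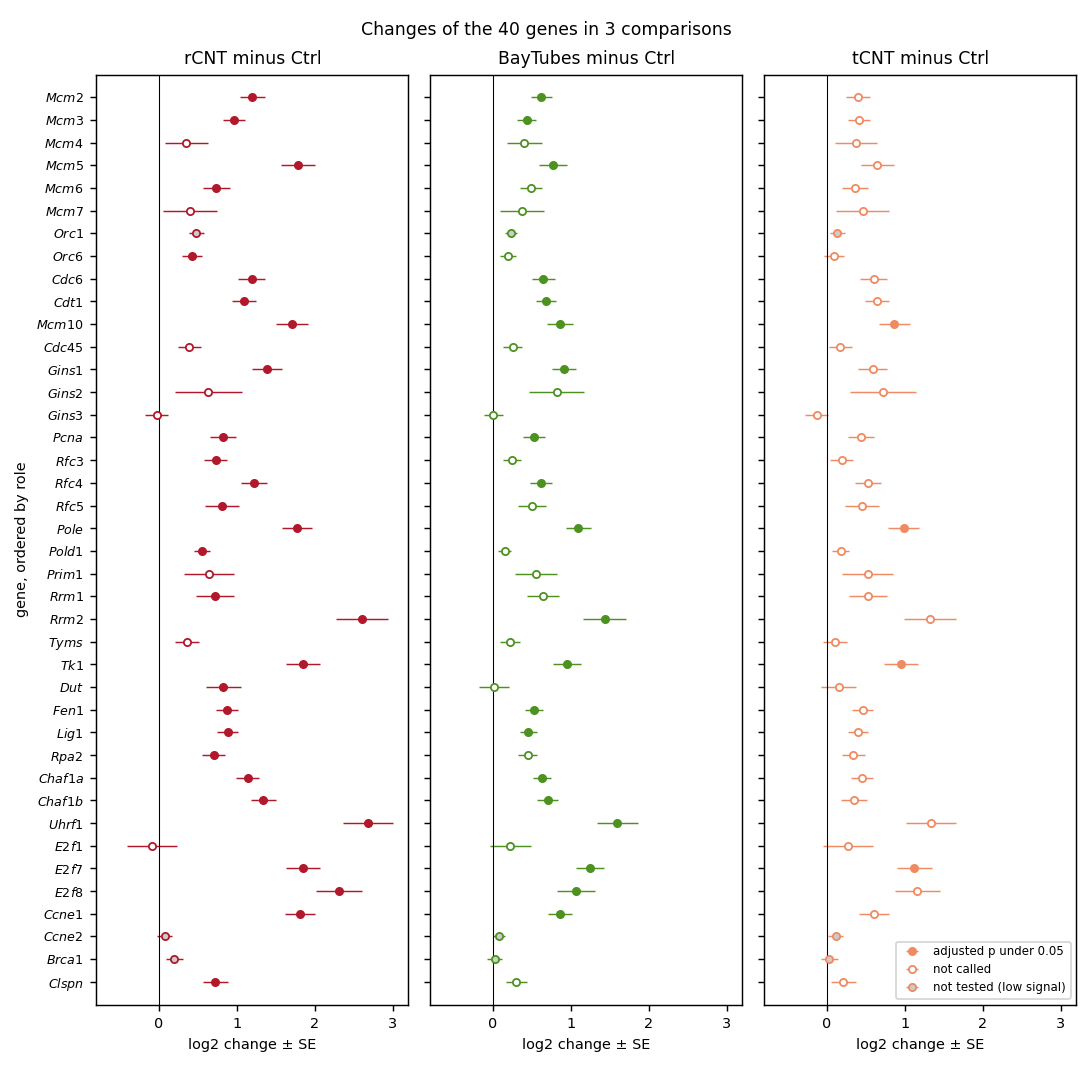
Log2 change against Ctrl with its SE for each of the 40 genes after rCNT, BayTubes and tCNT; filled points passed an adjusted p of 0.05, open points did not and grey points were too dim to test. Uhrf1, Rrm2 and E2f8 lie furthest right after rCNT (2.68, 2.60 and 2.30), and Gins3 and E2f1 lie near 0.

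The E2F factors recognise a short element in many replication gene promoters, so the promoter windows in RefSeq (build GRCm38.p6, 250 bases before to 50 after the start) were searched for the letters TTTCCCGC, TTTGGCGC, TTTCGCGC and TTTGCCGC on both strands. A window was given for 35 of the 40 genes, and 14 of these 35 (40.0%) held the letters, against 514 of 13080 tested genes with a window (3.93%). The 35 genes had 40 windows, and a gene counted when any of its windows held the letters. Uhrf1, Mcm7 and Lig1 also had windows without them, and the Uhrf1 stretch below is from the window with the letters. The 4 strings can overlap on opposite strands. The median GC content was 60.0% in the 35 genes and 59.0% in the 13080. Of the 14 genes with the letters 13 were tested, and 11 of these rose after rCNT. Of the 21 without them 20 were tested, and 16 rose. The median change was 0.81 over the 14 genes and 0.83 over the 21. The letters CCAAT, the CCAAT box, stood in 22 of 35 (62.9%), against 42.1% of the tested genes. The stretches below were chosen to set genes that rose beside Gins3 and Rrm2. Gins3 did not pass after rCNT but carries the same letters. Rrm2 rose by over 6-fold with CCAAT but none of the E2F letters. Capitals mark the E2F letters in the first 6 stretches and CCAAT in Rrm2, and all stretches lie before the start and read 5′ to 3′ on the gene's strand.
Mcm5 (chr8:75109316-75109407, plus strand): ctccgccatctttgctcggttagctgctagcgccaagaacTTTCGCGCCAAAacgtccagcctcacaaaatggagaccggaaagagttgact
Mcm6 (chr1:128359706-128359855, minus strand): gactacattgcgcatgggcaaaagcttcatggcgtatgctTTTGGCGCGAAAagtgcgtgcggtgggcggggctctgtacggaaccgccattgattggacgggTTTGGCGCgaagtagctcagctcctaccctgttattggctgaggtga
Cdc6 (chr11:98907973-98908060, plus strand): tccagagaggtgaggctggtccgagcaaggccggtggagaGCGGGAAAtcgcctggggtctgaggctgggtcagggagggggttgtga
E2f7 (chr10:110745201-110745288, plus strand): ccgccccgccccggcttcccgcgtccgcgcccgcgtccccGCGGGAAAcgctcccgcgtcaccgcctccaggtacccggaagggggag
Uhrf1 (chr17:56304088-56304175, plus strand): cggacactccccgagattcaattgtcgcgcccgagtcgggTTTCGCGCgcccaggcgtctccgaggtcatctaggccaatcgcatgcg
Gins3 (chr8:95633478-95633558, plus strand): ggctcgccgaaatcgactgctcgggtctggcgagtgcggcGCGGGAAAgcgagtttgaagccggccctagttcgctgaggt
Rrm2 (chr12:24708164-24708248, plus strand): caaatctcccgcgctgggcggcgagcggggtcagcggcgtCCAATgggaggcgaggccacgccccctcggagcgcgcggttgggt
The CCAAT letters also stand, in lower case, in the stretches of Uhrf1 and, on the opposite strand, of Mcm6. In Mcm5 and in the first site of Mcm6, 2 of the strings overlap on opposite strands. A match of letters describes the sequence and does not show that a factor binds there.

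The direct comparisons between materials show where rCNT stood apart. Against tCNT, 20 of the 37 genes were higher in rCNT lungs and 0 lower, where 5.71% of all tested genes were higher and 3.14% lower, and the median difference of the 40 genes was 0.46. The clearest were Ccne1 and Chaf1b. Ccne1 differed by 1.20 ± 0.19 (adjusted p = 0.000599), with 9.41 to 9.85 in rCNT samples and 8.19 to 8.44 in tCNT samples. Chaf1b differed by 0.99 ± 0.16 (adjusted p = 0.000777), with 10.72 to 10.81 in rCNT samples and 9.35 to 10.03 in tCNT samples. In 27 of the 40 genes, every rCNT sample was above every tCNT sample (13.6% of all tested genes). The number of genes that passed was 8 without rCNT 6, 5 without tCNT 7 and 13 without tCNT 9. With the array as a fixed term 0 passed, and with only the samples of these 2 groups in the fit 1 passed.

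Against BayTubes, 18 genes were higher in rCNT lungs and 0 lower, where 8% of all tested genes were higher and 5.05% lower, with a median difference of 0.41. Ccne1 (0.95 ± 0.18), Mcm5 (1.01 ± 0.20) and Mcm10 (0.85 ± 0.19) had the smallest adjusted p (0.00178, 0.00266 and 0.00547). In 21 of the 40, every rCNT sample was above every BayTubes sample (12.3% of all tested genes). The count was 8 without rCNT 6, 11 without BayTubes 18 and 5 without BayTubes 19. With the array as a fixed term 0 passed, and 0 passed with only the samples of these 2 groups in the fit.

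Between BayTubes and tCNT, 0 genes passed in limma, where 0.0424% of all tested genes were higher in BayTubes lungs and 0.0484% lower. An unadjusted p under 0.05 was reached by 1 of the 37 genes, against 585 of all 16519 tested genes. The median difference was 0.09, and the largest, in Chaf1b, was 0.36 ± 0.14 with a 95% interval from 0.06 to 0.66. Rrm2 differed by 0.11 ± 0.29, with an interval from -0.50 to 0.72. In 2 of the 40 genes every BayTubes sample was above every tCNT sample (1.75% of all tested genes). Between BayTubes and Graphite 0 passed as well (0.0121% of all tested genes higher and 0.0182% lower), with a median difference of 0.20. There 8 of the 37 genes had an unadjusted p under 0.05, against 2290 of all 16519 tested genes. In 3 of the 40 every BayTubes sample was above every Graphite sample (2.06% of all tested genes). An F test for any difference among the 6 materials passed in 23 of the 37 genes, where 16.5% of all tested genes passed, with Ccne1, Chaf1b and Tk1 at the smallest adjusted p (0.000126, 0.000188 and 0.000292).

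After tCNT the 4 genes that rose were Mcm10, Pole, Tk1 and E2f7, and in 24 of the 40 genes every tCNT sample was above every Ctrl sample (8.94% of all tested genes). The count rested on single samples: it was 0 without tCNT 8, tCNT 9, Ctrl 1 or Ctrl 2, 1 without Ctrl 3 and 10 without tCNT 7, the sample with the lowest median of its group. Without the array of rCNT 4 and Graphite 16 it was 2, and with the array as a fixed term 0.

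After BayTubes the 20 genes were Mcm2, Mcm3, Mcm5, Cdc6, Cdt1, Mcm10, Gins1, Pcna, Rfc4, Pole, Rrm2, Tk1, Fen1, Lig1, Chaf1a, Chaf1b, Uhrf1, E2f7, E2f8 and Ccne1, and 29 of the 40 had every BayTubes sample above every Ctrl sample (6.54%). BayTubes 17 and BayTubes 20 were the higher samples of the group, as in Rrm2 (10.38 and 10.85, against 9.63 and 9.80 in BayTubes 18 and 19). The count was 12 without BayTubes 20, without Ctrl 2 or without Ctrl 3, and 11 of the genes passed whichever sample was left out, among them Cdt1, Pole, Rrm2, Uhrf1 and Ccne1. Within slide 1, where 3 BayTubes samples met 1 Ctrl sample, 0 passed with a median change of 0.33, and within slide 2, with 1 against 2, 8 passed with a median of 0.59. With the array as a fixed term 2 passed.

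After Graphite the 5 genes were Cdt1, Gins1, Pole, E2f7 and E2f8, with 22 of the 40 fully above Ctrl (9.41%). None of these calls held in every reduced set: the count was 0 without Graphite 13, Graphite 16, Ctrl 1 or Ctrl 2, 2 without Ctrl 3, 9 without Graphite 15 and 0 with the array as a fixed term. After fullerene, the changes nearest to the threshold were those of E2f7 (0.89 ± 0.20) and Pole (0.79 ± 0.18), with adjusted p of 0.0831 and 0.0873. Fullerene 21 was the highest fullerene sample in many genes, as in Mcm5 (10.21, against 9.57, 9.47 and 9.33), and 14 of the 40 were fully above Ctrl (11.2%). After SES the largest change was that of Uhrf1, 0.95 ± 0.31 (adjusted p = 0.863), and 19 of the 40 were fully above Ctrl (7.25%). When each group was given its own variance, 5 genes passed after fullerene (Cdc6, Cdt1, Pole, E2f7 and E2f8), 0 after SES, 9 after tCNT and 2 after Graphite.

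A set of 7 of the 40 genes had an SD over 0.5 among the rCNT samples and was picked out after the values were seen. The genes were Mcm4, Mcm7, Gins2, Rfc5, Prim1, Rrm1 and E2f1. Of all tested genes 12.5% exceed that SD, a share not far from 7 of 40. How many of those tested genes share the sample order given below was not counted. Just inside the limit was Rfc5 (SD 0.53), and the highest SD of the other 33 genes was 0.49. In all 7, rCNT 4 was the lowest and rCNT 5 the highest rCNT sample, and Graphite 16 was the lowest of all 24 samples. In rCNT 4 the median of the 7 genes lay at -0.41 against the Ctrl mean, while the other 33 lay at 0.95. Since the 7 were picked by their spread among rCNT samples, a gap in single rCNT samples follows in part from that choice. In Graphite 16 the medians were -0.68 for the 7 genes and 0.32 for the other 33. In rCNT 5 they were 1.31 and 1.03, and in Graphite 15 and fullerene 23 the 7 genes were also low, at -0.38 and -0.24, against 0.29 and 0.33 for the others.

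Prim1, the primase subunit that starts each new strand, shows the pattern. It had 8.75, 10.48 and 9.64 in rCNT samples and 9.91, 8.70, 8.82 and 8.45 in Graphite samples, against 9.21, 9.30 and 8.88 in Ctrl samples. Both treated groups lay on both sides of the Ctrl samples. Samples rCNT 4 and Graphite 16 shared an array, as did Graphite 15 and fullerene 23. The median of the 7 genes was also negative in Graphite 14 (-0.23) and Ctrl 3 (-0.21). The samples on the same arrays as these were positive, rCNT 6 at 0.51 and BayTubes 20 at 0.40. Whether the array had a part in the pattern was not tested. Without the array of rCNT 4 and Graphite 16, Mcm4 (0.67 ± 0.23), Gins2 (1.15 ± 0.37), Prim1 (1.00 ± 0.29) and Tyms (0.49 ± 0.15) passed after rCNT and Orc6 did not, which made 32 genes, while 0 passed after Graphite.

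The pattern also differed between spots of the same gene. For 8 of the 40 genes the arrays carry more than 1 spot, with 9 further spots in all, of which 8 had a higher mean in rCNT samples than in Ctrl samples. The exception was a dim further spot of Pole, with a mean of 5.69 in rCNT samples and 5.89 in Ctrl samples. The second spot of Chaf1b had 8.59, 9.92 and 9.22 in rCNT samples and 9.09, 8.28, 8.30 and 7.42 in Graphite samples, against 8.49, 8.60 and 8.50 in Ctrl samples. Like the 7 genes, it was lowest in Graphite 16 of all 24 samples. It was also highest in rCNT 5 of all 24 samples, which did not hold for Mcm4 among the 7. Mcm4 had 11.85 in rCNT 5, against 11.88 in Graphite 13 and 11.89 in fullerene 21. The brighter Chaf1b spot, by contrast, had 10.81, 10.80 and 10.72 in rCNT samples. The second spot of Rfc4 behaved like that of Chaf1b, with 7.63, 9.05 and 7.82 in rCNT samples and 6.24 in Graphite 16. Its mean exceeded that of Ctrl by 0.23 after rCNT, against 1.24 for the brighter spot. The second spots of Mcm3 and Cdc6, by contrast, were higher by 0.99 and 0.95, close to the 1.03 and 1.08 of the spots used. The second spot of E2f7 was higher by 0.22, against 1.81 for the spot used. The further spots of Ccne1, Uhrf1 and Pole were above the detection limit in 3 to 13 of the 24 samples. What sets these spots apart was not tested.

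**Figure D4:**
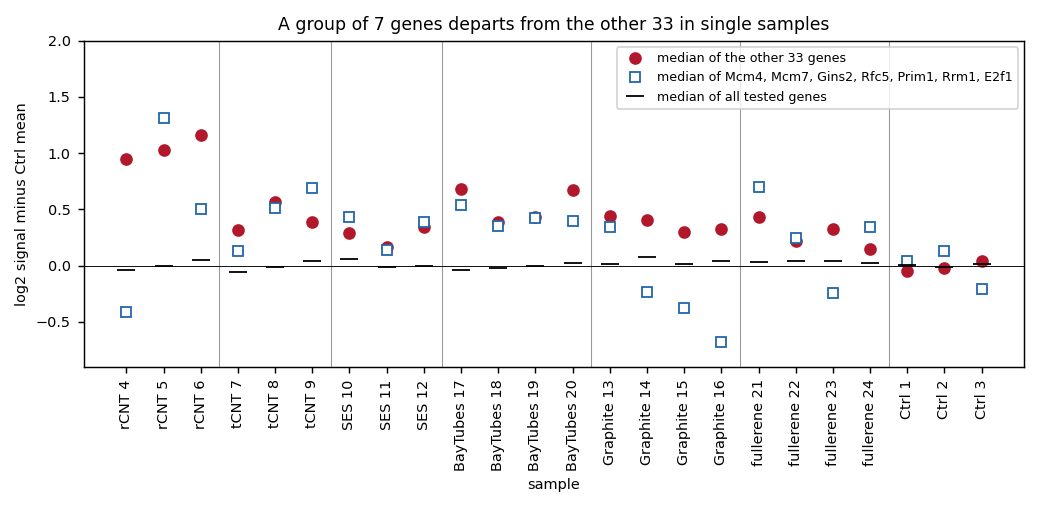
For each sample, the median log2 signal minus the Ctrl mean of Mcm4, Mcm7, Gins2, Rfc5, Prim1, Rrm1 and E2f1 (open squares), of the other 33 genes (filled circles) and of all tested genes (short bars). The squares fall below 0 in rCNT 4, Graphite 14, 15 and 16, fullerene 23 and Ctrl 3 while the circles stay above 0, and all tested genes stay near 0.

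A wider list of 44 further replication genes had a smaller median change. After rCNT 18 of the 44 rose and 0 fell, where 12.4% of all tested genes rose and 9.41% fell, with a median of 0.34. The histone chaperone Asf1b (2.26 ± 0.24) and the topoisomerase Top2a (2.15 ± 0.29) had the smallest p. After BayTubes, where 2.16% of all tested genes rose, 6 of the 44 rose, with Rnaseh2b, a subunit of the enzyme that removes ribonucleotides from DNA, at 0.74 ± 0.12 and Asf1b at 1.18 ± 0.19. After Graphite Asf1b alone rose (0.88 ± 0.21) and after fullerene Rnaseh2b alone (0.72 ± 0.13), where 0.545% and 0.151% of all tested genes rose. After tCNT and SES 0 of 44 passed, where 0.684% and 0% of all tested genes rose. An unadjusted p under 0.05 was reached in limma by 12 of the 44 after tCNT and 3 after SES, against 1536 and 747 of all 16519 tested genes.

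Among genes that drive or hold back entry into S phase, some passed after rCNT and most did not. After rCNT 12.4% of all tested genes rose and 9.41% fell. Of 13 G1 cyclins and kinases 4 rose after rCNT: Cks1b, a partner of Cdk kinases (2.07 ± 0.23), Myc (0.99 ± 0.20), the phosphatase Cdc25a (0.55 ± 0.11) and Cdk4 (0.36 ± 0.10). Cks1b also rose after tCNT (1.00 ± 0.23) and after BayTubes (1.00 ± 0.19). Of 16 brakes, 3 rose after rCNT (the Cdk4 inhibitor Cdkn2d at 0.48 ± 0.10, the Cdt1 inhibitor Gmnn at 0.59 ± 0.17 and Rbl1, a relative of the retinoblastoma protein, at 0.59 ± 0.20) and 2 fell (Cdkn1b at -0.37 ± 0.11 and Cdkn2b at -0.35 ± 0.12). After BayTubes 0 of the 16 brakes passed, with 3 at an unadjusted p under 0.05 in limma, against 2294 of all 16519 tested genes.

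Mitosis genes, which act after S phase, had larger median changes than the replication genes. Of 21 tested, 20 rose after rCNT (12.4% of all tested genes), with a median of 2.21 over the 23 measured. After BayTubes 17 rose (2.16% of all tested genes, median 1.14) and after tCNT 6 (0.684%, median 1.20). After Graphite 1 rose (0.545%), the kinetochore motor Cenpe (1.11 ± 0.26). The tCNT genes included the kinase Cdk1 (1.45 ± 0.29) and the spindle checkpoint target Cdc20 (1.42 ± 0.30). Against tCNT, 16 of the 21 were higher in rCNT lungs (5.71% of all tested genes), and 16 against BayTubes (8%).

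Markers of other cells moved in the same samples, where 12.4% of all tested genes rose and 9.41% fell after rCNT. Of 8 measured markers of monocytes and recruited macrophages, 7 rose and 1 fell after rCNT, and their mean log2 signal was 11.02 to 11.65 in rCNT samples, 9.50 to 10.43 in BayTubes samples, 9.92 to 10.01 in tCNT samples and 9.20 to 9.30 in Ctrl samples. None of these markers was below the detection limit in every sample. After BayTubes, where 2.16% of all tested genes rose and 1.02% fell, 1 of the 8 rose, Cd14 (0.97 ± 0.14). Markers of endothelium fell after rCNT in 5 of 6, with a mean of 12.64 to 12.88 in rCNT samples and 13.46 to 13.57 in Ctrl samples, and 1 of the 6 fell after BayTubes. Markers of alveolar type 1 cells fell after rCNT in 3 of 6. Of the 6 ciliated cell markers, 3 rose and 1 fell after rCNT and 3 rose after BayTubes. Of 4 tested eosinophil and basophil markers, 3 rose and 0 fell after rCNT, as did 3 and 0 of 8 alveolar macrophage markers. Of 3 tested erythroid markers, 0 rose and 2 fell after rCNT, and of 6 natural killer cell markers 0 passed. The part of these cells in the change of the replication genes was not tested, and the files do not tell which cells carried the RNA.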

How the data were processed

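Lung RNA of 24 samples, each pooled from 2 mice, was measured on 12 arrays with 2 dyes. The deposited values are 1 log2 signal per spot and sample. The submitters' processing notes name Agilent Feature Extraction and limma, without versions or settings. The log2 scale was read from the range of the values. After sorting, the deposited log2 values of 1 sample lay within 0.0856 of those of any other, the pattern that quantile normalization leaves.

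The platform table names a gene for 31465 of the 62976 spots, and the others were not used. RefSeq (GRCm38.p6) supplied the current name through the accession (29036 spots), the symbol (2075) or a synonym (349), and 5 spots kept the name they had. The brightest spot by mean over the 24 samples stood for a gene, which was tested when its signal exceeded the 40th percentile in at least 3 samples (16519 of 20738 genes). For all 40 genes, the platform's own names give the same spot.

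All 24 samples entered 1 linear model per gene (limma 3.58.1 with statmod 1.5.0, R 4.3.3) that held group and dye, with samples of the same array tied by a correlation of 0.399. Variances were moderated (residual df 16, prior df 3.54). For each comparison the 2-sided p-values of the 16519 genes were adjusted by Benjamini-Hochberg, and a gene passed at an adjusted p under 0.05. Fold changes are 2 to the power of the fitted log2 change. Each sample was taken as 1 replicate, since the labels describe separate pools. The 40 genes, the other lists, the naming rule and the alternatives were chosen with earlier results of these data known. By that rule any of the 40 genes could be named, and of each other list the 2 genes with the smallest p where they passed, or all that passed where these were 5 or fewer. The E2F and CCAAT letters were searched as exact strings.

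On simulated data for BayTubes against Ctrl, over 16519 genes, the fit found 94% of genes changed 2-fold and 100% of genes changed 4-fold, with 4.86% of calls among unchanged genes. Alternatives changed the dye term, array block, filter, spot, centring, variance prior, fold limit, samples in the fit and slide, and left out the array of rCNT 4 and Graphite 16 or each sample in turn.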

Additional observations from a re-analysis of the deposited data

Results flagged for a closer look

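In the groups of 4 samples, a sample was set apart when its gap to the nearest other sample took up more than the 95% limit of the group's range, which chance alone gives in about 1 of 20 groups. Of 120 such groups (the 40 genes in BayTubes, Graphite and fullerene) 4 were marked, a smaller share than chance alone gives. Mcm6 was at 12.09 in Graphite 14, against 11.84 to 11.85 in the other Graphite samples. Dut was at 9.56 in Graphite 13, against 8.99 to 9.04. Orc1, too dim to test, was at 5.58 in Graphite 13, against 5.46 to 5.48. Chaf1b was at 10.05 in fullerene 21, against 9.59 to 9.65 in the other fullerene samples. All 4 were high values, and 2 of them were in Graphite 13.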

How the results depend on the processing

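Samples could not be paired by number, because the sample numbers in the labels are unique and none is shared between groups. Samples of different groups that share an array were blocked by array instead, with array as a random block or, in the alternative given here, as a fixed term. Counts are of the 37 tested genes that passed. Leaving out each sample in turn gave 26 to 30 after rCNT (median change of the tested genes 0.82 without Ctrl 1 to 1.01 without rCNT 4), 0 to 10 after tCNT, 12 to 21 after BayTubes, 0 to 9 after Graphite (median 0.23 without Graphite 13 to 0.34 without Graphite 14), 0 after SES and fullerene, 5 to 22 for rCNT against tCNT and against BayTubes, 0 for BayTubes against tCNT and Graphite, and 17 to 26 in the F test. Of the genes that passed after rCNT, 26 of 29 did so in every such set, 11 of 20 after BayTubes, and 0 of 4 and 0 of 5 after tCNT and Graphite.

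With array as a fixed term, 17 genes passed after rCNT, 2 after BayTubes, 0 after tCNT and Graphite, 0 for rCNT against tCNT and BayTubes, and 2 in the F test. Without the array block, 13 passed after BayTubes and 0 after Graphite. With only the groups compared in the fit, 2 passed after tCNT, 13 after BayTubes, 0 after Graphite, 1 for rCNT against tCNT and 0 against BayTubes. With 1 variance per group, 9 passed after tCNT, 2 after Graphite, 5 after fullerene, 5 for rCNT against tCNT and 3 against BayTubes. Without the filter, 2 passed after tCNT and 3 after Graphite, and with the mean of all spots 2 after Graphite (median 0.22) and 1 after fullerene. Centring on the 75th percentile gave 8 after Graphite, a limit of 1.5-fold gave 11 for rCNT against BayTubes, and a slide term gave 1 for BayTubes against Graphite. Without the array of rCNT 4 and Graphite 16, 2 passed after tCNT and 0 after Graphite, and the rCNT median was 1.01.

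Within slide 1, 19 passed after rCNT, 0 after tCNT, BayTubes and Graphite, and 1 for BayTubes against Graphite, with medians of 0.21 after tCNT, 0.0852 after SES, 0.33 after BayTubes, 0.12 after Graphite and 0.0165 after fullerene. Within slide 2, 19 passed after rCNT (median 1.08), 8 after BayTubes, 4 for rCNT against BayTubes and 2 for BayTubes against Graphite. Rfc5 turned to -0.0521 after rCNT within slide 2 and Rrm1 to -0.0708 within slide 1, where a group had a lone sample assumed to vary like the others. Fits within slides, and those of the groups compared, kept 0.399 as the array correlation. The cause of these shifts was not tested, beyond the smaller number of samples within a slide. The 3 or 4 samples of a group, and genes near the detection limit such as Cdc45 and Clspn, limit what can be seen.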
